A study of Mus musculus with 15 samples.

Results

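In pancreatic islets of mice after partial pancreatectomy (PPx), 1207 of 12552 autosomal ATAC-seq peaks (9.62%) had a lower mean signal in KO-labelled than in control islets, while the median autosomal peak was 0.61 log2 units higher. These peaks were chosen by that difference: every peak on chromosomes 1 to 19 of the genotype comparison after PPx whose KO-labelled group mean lay below the control mean. Their values in that comparison are therefore a description, with no test, and are called the members below. All 1207 lie in the set by sign alone, however small the difference. The other 11345 autosomal peaks are the remainder of the same table.

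The study asked how loss of Arid1a in beta cells acts on chromatin during islet regrowth. All mice were males of 3 months with floxed Arid1a alleles (Arid1aFl/Fl), and both genotypes drank doxycycline at 1 g/L for 2 weeks. Controls carried Arid1aFl/Fl; MIP-rtTA, and the KO-labelled mice carried TRE-Cre as well, so that Cre depends on the mouse insulin promoter and on doxycycline. Whole islets were assayed, at 40000 cells per library, so alpha, delta, endothelial and other islet cells keep Arid1a in both genotypes. The baseline groups before PPx had 4 control and 3 KO-labelled libraries. The groups after PPx had 4 libraries of each genotype, from mice operated on 1 week after doxycycline was withdrawn and sampled 6 days later. ATAC-seq uses the Tn5 transposase, which cuts and tags DNA where nucleosomes leave it exposed, so that read density over a peak reports how accessible that DNA is. Arid1a is the DNA-binding subunit of the canonical BAF form of the SWI/SNF complex, which slides and evicts nucleosomes. In many tissues BAF is best known for holding open enhancers, the distal switches that set cell identity, whereas promoters rich in CpG are commonly open in most cells.

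Values are concentrations, the authors' group means of log2 normalised reads per 601 bp peak, and every difference is KO-labelled minus control or after minus before PPx, in log2 units. An error beside a difference is the standard error (SE) implied by its size and the p-value in the authors' deposited table. Signal per mouse, depth per library and the spread of single libraries are not analysed here, so no mouse can be left out in turn. In bulk islets fewer cells of a type and less signal per cell cannot be told apart. The 1 Arid1a peak, in exon 9, was the higher one under the KO label, with means of 0.40 in control and 4.04 in KO-labelled islets after PPx and of 1.21 and 5.49 before it. It separates the labelled groups, but loss of the gene was not tested by it, so the genotype is named here by its label.

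Promoters made up a small share of the members, and those present were poorer in CpG than other promoter peaks. RefSeq promoter windows of build GRCm38.p6 (the assembly of mm10), which run from 250 bases before to 50 after the start of a gene, were overlapped by 100 of 1172 members on the 18 autosomes covered (8.53%) and by 5452 of 10932 other peaks (49.9%). The member windows held a median of 20 CpG dinucleotides and the others 23, against 7 over all autosomal windows. Fewer than 10 CpG occurred in 30% of member windows and in 9.19% of the others. The 4 stretches below were picked after their values were seen: the strongest of them without a CpG, 2 with few and 1 with many. Their CpG were counted only where window and peak overlap, 120 bases for 4931408C20Rik and 217 for Bche. Those 2 counts are therefore not on the scale of the full windows of 300 bases. Only the bases shared by window and peak are printed, 5′ to 3′ on the gene's strand, with each CpG in capitals.
4931408C20Rik: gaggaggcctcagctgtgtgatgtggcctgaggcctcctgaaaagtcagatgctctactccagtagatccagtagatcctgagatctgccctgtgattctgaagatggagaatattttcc
Cep126: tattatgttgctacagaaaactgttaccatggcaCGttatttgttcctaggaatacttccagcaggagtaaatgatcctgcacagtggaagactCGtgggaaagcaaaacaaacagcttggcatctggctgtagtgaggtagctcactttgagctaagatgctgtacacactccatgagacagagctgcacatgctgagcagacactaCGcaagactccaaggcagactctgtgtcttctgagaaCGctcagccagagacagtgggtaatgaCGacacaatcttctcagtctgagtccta
Bche: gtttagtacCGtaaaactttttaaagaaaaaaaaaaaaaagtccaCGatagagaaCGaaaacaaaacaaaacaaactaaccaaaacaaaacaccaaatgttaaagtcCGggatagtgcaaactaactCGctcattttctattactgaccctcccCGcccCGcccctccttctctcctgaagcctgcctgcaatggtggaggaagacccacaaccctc
Sun1: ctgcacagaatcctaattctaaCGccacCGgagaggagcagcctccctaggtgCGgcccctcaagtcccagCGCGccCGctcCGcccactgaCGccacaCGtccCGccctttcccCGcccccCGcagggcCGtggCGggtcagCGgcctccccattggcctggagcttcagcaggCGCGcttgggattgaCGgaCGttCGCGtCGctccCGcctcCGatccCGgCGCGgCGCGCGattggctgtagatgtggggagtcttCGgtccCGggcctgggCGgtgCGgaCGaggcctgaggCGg

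The 4931408C20Rik stretch (chr1:26687411-26687530, minus strand) belongs to a gene known by its clone name, and its peak had a concentration of 5.39 in control and 4.64 in KO-labelled islets after PPx. Cep126 (chr9:8123615-8123914, minus strand), which encodes a centrosomal protein of the primary cilium, has 5 CpG and group means of 3.85 and 2.89. Bche (chr3:73708366-73708582, minus strand), the gene of butyrylcholinesterase and a marker on the alpha, delta and PP cell list, has 7 CpG with means of 3.84 and 3.55. Sun1 (chr5:139200387-139200686, plus strand), which encodes a protein of the inner nuclear membrane that tethers the nucleus to the cytoskeleton, has 36 CpG with means of 4.19 and 3.89. The control mean lay above the KO-labelled mean at each, as the choice of members requires.

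Short motifs were counted in the same windows on both strands, as letters only. The GC box GGGCGG, the letters bound by SP factors, occurred in 52% of member windows, 71.2% of other peaks' windows and 36% of all windows. The ETS letters CCGGAAG occurred in 17%, 19.5% and 9%, and the NRF1 core GCGCATGC in 6%, 6.02% and 2.7%. The AP-1 letters TGANTCA stood in 6% of member windows, 3.87% of the others and 7.84% of all windows. CCAAT was present in 40%, 44.5% and 37.3% and TATAAA in 8%, 5.63% and 13.6%. TGACGTCA (3%, 3.91% and 1.83%) and the forkhead letters TGTTTAC (3%, 2.37% and 3.71%) were rare. CCGGAAG and GGGCGG can stand side by side but do not contain each other.

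Members lay close to their controls in most cases. The median member had a concentration of 3.53 in control and 3.26 in KO-labelled islets after PPx, a difference of -0.23 (quartiles -0.47 and -0.11, range -2.60 to -0.01). The difference was below -1 in 52 members (4.31%), between -1 and -0.5 in 218 (18.1%), between -0.5 and -0.25 in 293 (24.3%), between -0.25 and -0.1 in 346 (28.7%) and above -0.1 in 298 (24.7%). The median implied SE of a member's difference was 0.47, so the median difference is smaller than the median error. At the boundary, 29 members had a difference of -0.01, and 35 other peaks stood at 0.00 and 28 at 0.01. Just inside it were a peak near Gm11260 (4.76 in control and 4.75 in KO-labelled islets), the promoter of Vps13b (4.25 and 4.24), a lipid transfer protein of the Golgi, and intron 6 of Ptprd (4.18 and 4.17), a receptor tyrosine phosphatase. Just outside were the promoter of Inppl1 (4.15 in both), the lipid phosphatase SHIP2, a distal peak of Met (4.03 in both), the receptor of hepatocyte growth factor, and an intron of Gm16267 (4.01 in both).

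**Figure D1:**
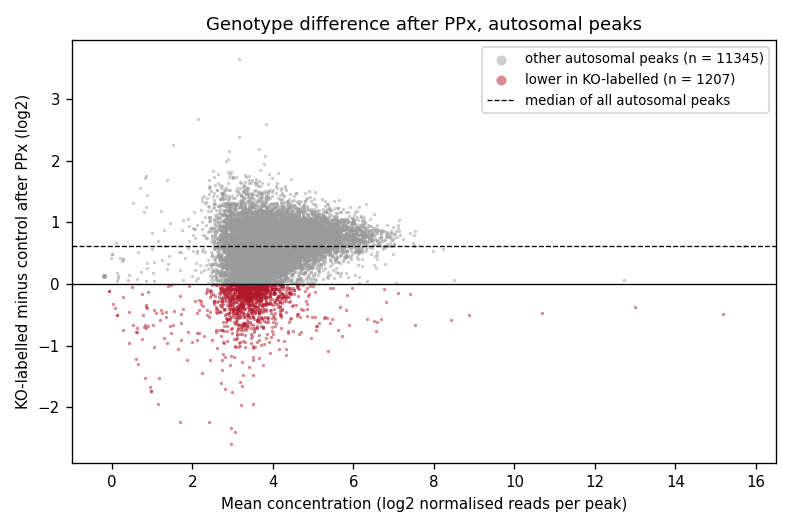
Each point is an autosomal peak, with its mean concentration after PPx (log2 normalised reads per peak) on the x axis and KO-labelled minus control (log2) on the y axis; red points are the 1207 members and grey points the other 11345. The dashed line marks the median of 0.61, and the members lie below 0 by definition, crowded near concentrations of 3 to 4 with a thin scatter of very strong peaks to the right.

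The members were distal or intronic more often than other peaks, and less often at promoters; these shares are given without a test. Distal intergenic peaks were 558 of the members (46.2%) against 20.4% of other peaks, and introns held 347 (28.7%) against 11.3%. Promoters, within 3 kb of a start site, held 228 members (18.9%) against 7467 other peaks (65.8%), and the gap was in the first 1 kb (14.6% against 62.9%). From 1 to 2 kb away the order turned, with 2.57% of members and 1.48% of other peaks. Exons held 3.65% against 1.38% and 3′ UTRs 19 members (1.57%) against 0.538%. Seen from the classes, 2.96% of all promoter peaks were members, compared with 19.4% of distal, 21.3% of intronic, 22% of exonic and 23.8% of 3′ UTR peaks. Outside promoters, members lay a median of 46.5 kb from the nearest RefSeq start and other peaks 36.6 kb, and 48.2% against 41.7% lay beyond 50 kb. Host genes of intronic members had a median length of 175 kb, close to the 174 kb of other intronic peaks, and 22.2% against 27.2% were in the first intron.

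**Figure D2:**
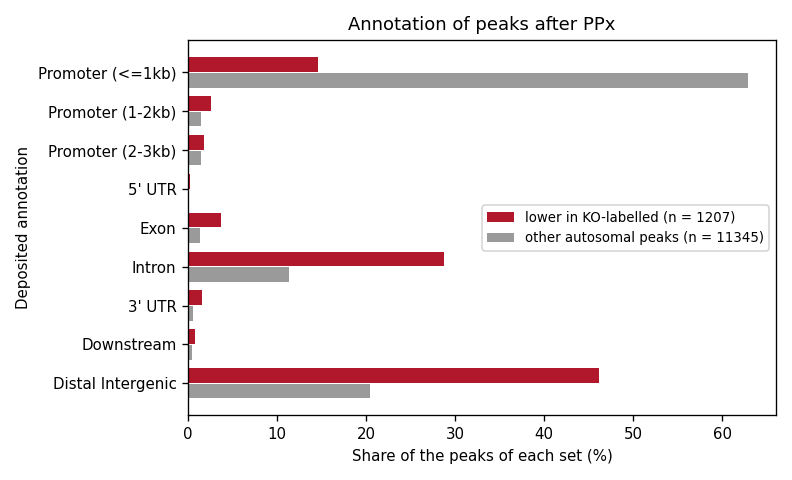
Bars give the percentage of the 1207 members (red) and of the 11345 other autosomal peaks (grey) in each class of the deposited annotation. Distal intergenic (46.2% against 20.4%) and intronic peaks (28.7% against 11.3%) are the longer red bars, and promoters within 1 kb (14.6% against 62.9%) the longest grey bar.

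The excess outside promoters was present at every signal level. Members were weaker than other peaks, with a median concentration of 3.41 (10.6 reads) against 3.88 (14.7 reads). Among peaks with a concentration of 3 to 3.5, 22.2% of those outside promoters and 6.62% of promoters were members. At 4 to 4.5 the shares were 16.9% and 1.26%, and at 5 to 6 they were 9.29% (95% Wilson interval 5.88 to 14.4) and 0.333%. Above 6 the share outside promoters was 28.2%, though this rests on 11 of 39 peaks (Wilson interval 16.5 to 43.8), while 4 of 318 promoters (1.26%) were members. These intervals cover counting error only, and neighbouring peaks are not independent.

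**Figure D3:**
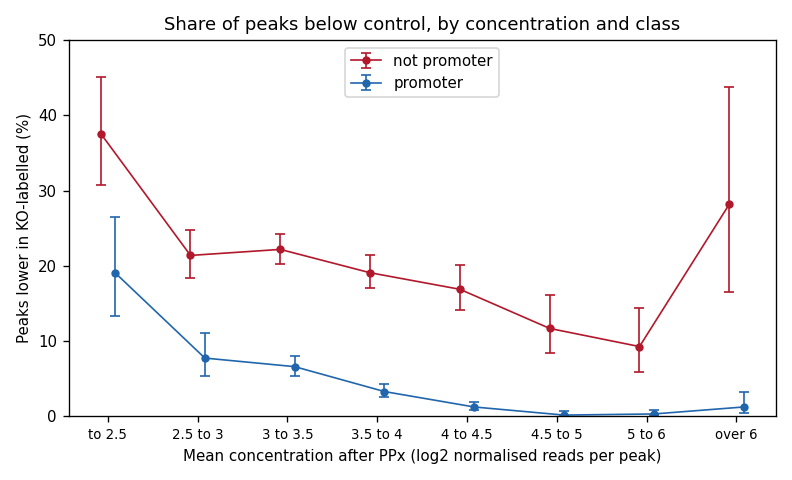
Points give the percentage of autosomal peaks that are members in bins of mean concentration after PPx (log2 normalised reads per peak, x axis), for promoter peaks (blue) and other peaks (red), with 95% Wilson intervals. The red points lie above the blue ones in each bin, 22.2% against 6.62% at 3 to 3.5, and the last red point rests on 39 peaks.

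Peak calls followed the same split only in part. A peak was called in more control than KO-labelled libraries for 333 members (27.6%) and 1.54% of other peaks, and in more KO-labelled than control libraries for 351 members (29.1%) and 71.5% of other peaks. Just 2 of 8 libraries called 503 members (41.7%) and 26% of other peaks. All 8 libraries called 80 members (6.63%) against 2110 others (18.6%). A few of these 80 were weak, with a concentration under 3 in 12 members and in 17 other peaks, so the call does not match the counted reads. Gnb1l intron 2 and a distal peak of Csmd3 were called in all 8 libraries, yet each had a control mean of 1.60 and a KO-labelled mean of -0.13. That value is the lowest KO-labelled concentration there, shared by 95 autosomal peaks of which 15 are members, so no fold is given for them.

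In the authors' deposited table, 8 members had an FDR of 0.05 or below, of 11 peaks called lower among 13111 on all chromosomes (0.0839%), and 64 members (5.3%) had an unadjusted p under 0.05 (69 peaks, 0.526% of the table, were lower at that p). Since the rule used this contrast, nothing is read from these counts. An FDR of 1 stood beside 709 members (58.7%) and 31.4% of other peaks. Benjamini-Hochberg adjustment of the listed p-values over the whole table also gave 8 members, but only 3 were the same, and the other 5 carried a deposited FDR of 1.

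The 8 were outside promoters, and 6 of them were assigned to predicted genes. The lowest lay downstream of Gm10354 (chr5:14971155-14971755), with group means of 4.17 and 2.23, a difference of -1.94 (SE 0.50) and an FDR of 0.0212 in the authors' deposited table, though it was called in only 1 library of each genotype. Exon 61 of 67 of Pkhd1 (chr1:20117046-20117646), which encodes fibrocystin, a ciliary membrane protein of duct epithelium, had means of 4.79 and 3.63, a difference of -1.16 (SE 0.37) and an FDR of 0.0345 there. It was called in 4 control libraries and 1 KO-labelled library. A distal peak of Ndufb3 (chr1:58613678-58614278), a subunit of mitochondrial complex I, was called in 4 control libraries and no KO-labelled one, with means of 3.99 and 2.80 (SE of the difference 0.43) and an FDR of 0.0469 in the authors' deposited table. Near Gm22563 (chr4:51475152-51475752) calls were also 4 and 0, with means of 4.00 and 2.76. Near Gm5466 (chr2:181917215-181917815) all 8 libraries had a call, with means of 5.80 and 4.71. The peaks of Gm17377 (4.06 and 2.59, called in 2 control libraries and no KO-labelled one), Gm25255 (4.76 and 3.71, called in all 8) and Gm12362 (4.58 and 3.53, called in 4 and 3) complete the set.

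Among members near genes with established names, the lowest differences were at weak peaks. A distal peak of Lrrc7, which encodes densin of the postsynaptic density, had means of 3.71 and 1.38, a difference of -2.33 (SE 0.63), with an FDR of 1 in the authors' deposited table. Distal peaks of Agpat4, an acyltransferase of phospholipid synthesis (3.43 and 1.73), and of Zfr, an RNA-binding zinc finger protein (3.81 and 2.33), were also among the 10 lowest. Intron 7 of Vps45, which encodes a regulator of endosomal membrane fusion, had means of 3.85 and 2.19 (difference -1.66, SE 0.51). Intron 2 of D5Ertd579e (3.31 and 1.71), a distal peak of Ankle1, an endonuclease (2.80 and 1.35), and a distal peak of Zfp873 (1.74 and 0.22) were weaker still. The Zfp873 peak had a p of 0.145 in the authors' deposited table. It was called in 0 control and 3 KO-labelled libraries, so its calls and counted reads point opposite ways. Intron 1 of Ppp2r2b, a regulatory subunit of protein phosphatase 2A, had means of 3.94 and 2.59.

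The 4 strongest members were assigned to predicted genes. Gm10800 (chr2:98666841-98667441) had concentrations of 15.42 in control and 14.93 in KO-labelled islets, a difference of -0.49 (SE 0.37), and the neighbouring Gm10801 had 13.19 and 12.81. Both predicted genes lie in major satellite sequence, the tandem repeat of mouse pericentromeres, where reads of many copies can pile up on the few copies in the assembly. Gm5614 (10.91 and 10.44), Gm21738 (9.11 and 8.60) and Gm11668 (7.48 and 7.32) came next among predicted genes. A distal peak of Ly6c2, a GPI-anchored surface antigen of myeloid cells, had 8.69 and 8.11. The promoter of Aida, which encodes an axin-interacting protein, had 7.83 and 7.17 at 1 to 2 kb from its start. Cdk8 intron 2, in the gene of a Mediator kinase, had 7.19 and 7.04, Filip1l intron 1 had 6.95 and 6.66, and the 3′ UTR of Lars2, the mitochondrial leucyl-tRNA synthetase, had 6.80 and 6.71. The promoters of Mir6236 (5.69 and 5.05) and AW822073 (5.59 and 5.04) were next among promoter members. None of these differences reached an FDR of 0.05 in the authors' deposited table.

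**Figure D4:**
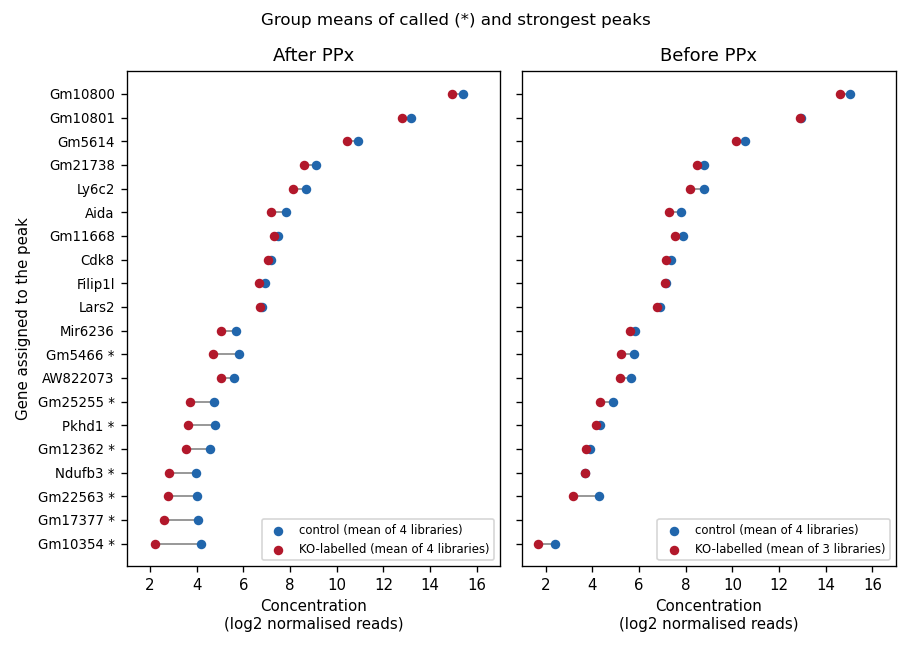
Dots are group means (log2 normalised reads, x axis) in control (blue) and KO-labelled islets (red) after PPx (left) and before PPx (right) for the 8 members called at FDR 0.05 (starred) and the strongest members and promoter members; a peak with no listed match before PPx has no dots on the right. Control dots lie to the right of the red ones after PPx by choice of the members, and at Ndufb3 the means before PPx were 3.70 and 3.69.

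Some members clustered, and windows of 1 Mb with 5 or more of them held 29 members. Repeat content was not analysed. Between 15 and 16 Mb of chromosome 5, 9 of 13 peaks were members, with a median difference of -1.12 (range -2.24 to -0.10), near Gm17019, Gm21847, 4930572O03Rik and Speer4cos. Speer genes form a multicopy family expressed in testis, so reads of near-identical copies may be split among them and single peaks there are uncertain. The Speer4cos promoter had means of 3.61 and 1.86, its distal peak 4.26 and 2.94, and the distal peak of Speer4f1 on the same chromosome 2.36 and 1.13. The other windows, with 5 members each, were on chromosomes 7, 12, 15 and 17, with median differences of -0.53, -0.24, -0.20 and -0.31. Predicted, Rik or Mir genes were assigned to 1 member in the chromosome 7 window and to 0 in the others. Within 0.5 Mb of position 3000000, where mouse chromosome assemblies begin beside the centromere, 16 of 66 peaks (24.2%) were members, on 10 chromosomes and with a median difference of -0.46. Of all autosomal peaks 9.62% were members, and of those outside promoters 20.2%, which is near that share. Of those 16, 11 were assigned to predicted genes. Predicted, Rik or Mir genes were the nearest gene of 30.7% of members and 18.5% of other peaks. Outside promoters, where most members lie, the shares were close, at 31.3% and 28.2%. By chromosome the share of members ran from 7.17% (chromosome 7) to 13.3% (chromosome 15).

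The members were assigned to 1092 genes, of which 992 had 1 member, 86 had 2, 13 had 3 and 1 had 4. Every autosomal peak of 527 genes was a member, while 565 genes also had a peak at or above control. Ank, which encodes a pyrophosphate transporter, had 4 members among 6 peaks (-0.53 to -0.10), in a 1 Mb window of chromosome 15 with 5 members. All 3 peaks of Astn2, a neuronal migration protein (-0.29 to -0.03), and all 3 of Gm5466 (-1.09 to -0.55) were members. At Tcte2, a testis-expressed gene, 3 of 4 peaks were members (-0.86 to -0.53). Trps1, a GATA-type repressor, had 3 of 7 (-1.03 to -0.32), Prkd1, the kinase protein kinase D1, 3 of 6 (-0.39 to -0.14), and Nrxn3, a synaptic neurexin, 3 of 7 (-0.21 to -0.02). These genes were singled out after their counts were seen.

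Gene lists of islet cell types and pathways were described by counts. Beta cell identity genes had 3 members among 30 autosomal peaks, and the median peak of the list stood at 0.67, near the 0.61 of all. Among these were intron 2 of Slc30a8, the zinc transporter of insulin granules (4.49 and 4.34), and intron 10 of Abcc8, the sulfonylurea receptor (3.81 and 3.78). SWI/SNF subunits (16 peaks, median 0.70), AP-1 and immediate early factors (14 peaks, 0.64), and acinar, stellate and Schwann cell markers (2, 4 and 1 peaks) had no member. Cell cycle genes had 2 of 35, both distal peaks of Myc, of which the stronger had 3.99 and 3.42. EGF and neuregulin ligands with ERBB receptors had 2 of 18, intron 1 of Erbb4 (4.38 and 4.19) and the promoter of Hbegf (3.56 and 3.49). A list of predicted genes at satellite, ribosomal DNA or nuclear mitochondrial copies had 3 of 6, with a median of -0.14. Its members were the peaks of Gm21738, Gm10801 and Gm10800.

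Markers of islet cells that are not beta cells were represented on few peaks. Alpha, delta and PP cell markers had 3 of 7 peaks, namely Bche, Ptprz1 (3.30 and 3.09) and the promoter of Gcg, which encodes glucagon (3.80 and 3.70), and the list's median was 0.53 with 1 of its other peaks called higher. All 3 ductal members of 8 peaks were those of Pkhd1, and that list's median was 0.13. Endothelial markers had 3 of 8 peaks (median 0.17): a distal peak of Cdh5, the adherens junction cadherin of vessels (3.54 and 3.00), intron 1 of Tek (3.69 and 3.53) and intron 15 of Flt1 (4.22 and 4.10), receptors for angiopoietin and VEGF. Leukocyte markers had 1 of 6 (median 0.46), intron 3 of Cd84 (3.14 and 2.66). Most of these peaks lay outside promoters, where 20.2% of all autosomal peaks were members. There the ductal and endothelial lists had 3 of 7 peaks each, the alpha, delta and PP list 1 of 5 and leukocytes 1 of 6. Whether cell composition contributes to the members was not tested. Long neuronal-type adhesion and synaptic genes had 24 of 159 peaks (15.1%) with a list median of 0.33, where 9.62% of all autosomal peaks were members. Outside promoters the list had 22 members among 129 peaks (17.1%), and all autosomal peaks had 979 among 4857 (20.2%). Among them were intron 3 of Pcdh9, a protocadherin (4.69 and 4.07), and intron 12 of Ptprn2, a dense-core vesicle protein (4.09 and 3.97).

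Before PPx, the genotype comparison used 7 other libraries, so it is independent of the choice of members. A peak is listed there only if it was called in at least 2 of those 7 libraries, and 477 members (39.5%, or 6.4% of that table's autosomal peaks) overlapped a listed peak. Counts and medians of these 477 therefore describe the matched peaks and not the 1207. Their median was 3.85 in control and 3.44 in KO-labelled islets, a difference of -0.40 (quartiles -0.71 and -0.09, range -2.38 to 1.77). The difference was below 0 for 381 (79.9%), while the whole table had a median of 0.00 with 50% below 0. Promoter matches (82) had a median of -0.37 against 0.04 for the rest, and the 395 other matches -0.41 against -0.09. Below 0 were 74.4% of the promoter matches, beside 44.3% of the rest, and 81% of the other matches, beside 58.1%. In the 72 matches called in all 7 libraries, which no group alone carried into the table, the median was -0.32 with 62 below 0, and the 1963 remaining peaks of that kind had 0.09 with 695 below 0. Matches called in control libraries only (85) had -0.81 and those called in KO-labelled libraries only (13) had 0.17. The sets by calls were not split into promoters and other peaks. Above a concentration of 4.5, outside promoters, 48 matches had -0.38 and the rest 0.04. The size of the difference after PPx made little distinction, with -0.41 for members below -0.5, -0.46 from -0.5 to -0.25 and -0.37 for those nearer to 0.

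**Figure D5:**
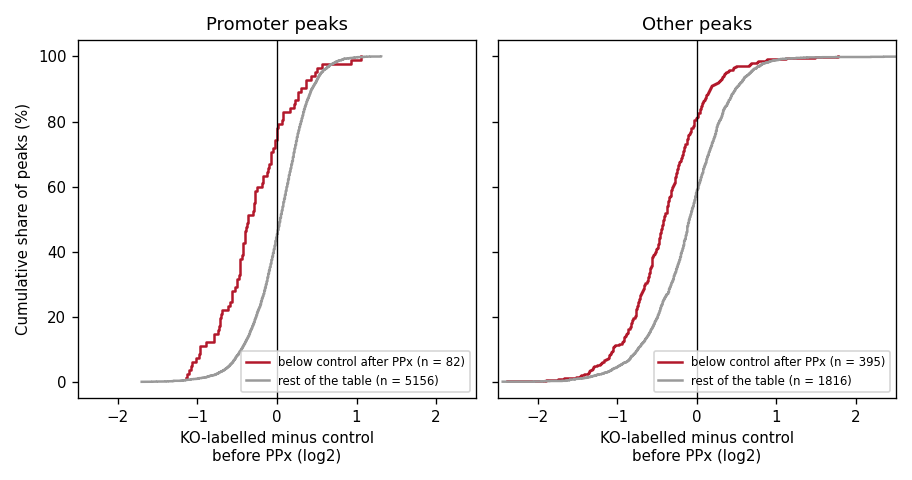
Curves give the cumulative percentage of peaks (y axis) at or below each genotype difference before PPx (KO-labelled minus control, log2, x axis), for the matched members (red, 82 promoter and 395 other peaks) and the rest of the table (grey). The red curves lie to the left, with medians of -0.37 and -0.41 against 0.04 and -0.09.

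Single peaks before PPx were tested in the authors' deposited table. No matched member reached an FDR of 0.05 there, where 1 peak of 7826 did (0.0128%). At an unadjusted p under 0.05, 48 matched members were lower (10.1% of 477, where 2.3% of the table was lower at that p) and 3 were higher (0.629%, where 0.843% of the table was). Of the 48, 27 came from the 85 matches called in control libraries only, which entered the table through the group where they are high. Among the 379 matches called in both groups 20 were lower at that p (5.28%, beside 0.897% of the remaining peaks called in both), and among the 72 called in all 7 libraries 3 were (4.17%, beside 0.458%). The 3 higher were exon 5 of Fez2, a distal peak of Gm26923 and intron 5 of Gm6264. None of these passes adjustment over the table, so each is a measured difference and not a call. The peaks named next were chosen after their p-values were seen, except Slc30a8, Ptprn2, Erbb4 and Vps45.

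Slc30a8 intron 2 (chr15:52315893-52316493) had means of 4.51 in control and 3.06 in KO-labelled islets before PPx, a difference of -1.45 (SE 0.44, p of 0.0011 in the authors' deposited table), and was called in 4 control libraries and no KO-labelled one. It was thus listed through the group where it is high, as were the peaks of Cntnap5b, Pde4d, Kirrel3, Ldlrad3 and Gm22563 named below, so their values are a description and support no lower signal by themselves. The Fam107a and Vps45 peaks were called in all 7 libraries. After PPx the difference at Slc30a8 was -0.15 (SE 0.38). The listed gap between genotypes there was the smaller one after PPx, but that change was not tested. The median autosomal peak had a difference of 0.00 before PPx and 0.61 after it, in comparisons normalised separately. Differences before and after PPx, here and below, therefore have no common baseline. Ptprn2 intron 12 had 4.00 and 2.92 before PPx (-1.08, SE 0.48) and -0.12 after. Erbb4 intron 1 had 4.30 and 3.43 (-0.87, SE 0.45).

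The lowest p before PPx was at a distal peak of Cntnap5b, a contactin-associated adhesion protein, with means of 3.71 and 1.33 (-2.38, SE 0.69, p of 0.000583 in the authors' deposited table). A distal peak of Fam107a, an actin-associated stress-response gene, had 4.73 and 3.03 (-1.70, SE 0.52), and intron 3 of Pde4d, a cAMP phosphodiesterase, 4.09 and 2.42 (-1.67, SE 0.52). Kirrel3 intron 2, in the gene of a synaptic adhesion molecule, had 4.51 and 3.19 before PPx (-1.32, SE 0.43) and 4.66 and 3.73 after it. The Ldlrad3 promoter, of an LDL receptor class A domain protein, had 4.54 and 3.44 before and 4.91 and 4.37 after PPx. Vps45 intron 7 had 3.61 and 2.24 before PPx (-1.37, SE 0.58), and its difference after PPx was -1.66. Tmem267 intron 3 had 4.75 and 3.40 (-1.35, SE 0.43), although it was called in no control library and in 3 KO-labelled ones, so there the calls and the counted reads point opposite ways.

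Of the 8 peaks called lower after PPx, 7 had a listed match before it. Gm22563 had means of 4.29 and 3.19 then (-1.10, SE 0.44, p of 0.0128 in the authors' deposited table). Its difference after PPx was -1.24. The others were smaller than their errors or little larger: Gm10354 had -0.71 (SE 0.87), Gm25255 -0.59 (SE 0.43), Gm5466 -0.55 (SE 0.57), Pkhd1 exon 61 -0.16 (SE 0.38) and Gm12362 -0.16 (SE 0.81). Ndufb3 had means of 3.70 and 3.69. Of the strongest members, Gm10800 had 15.06 and 14.63 before PPx, a difference of -0.43 (SE 0.46). Ly6c2 had 8.77 and 8.18 (-0.59, SE 0.45), and Aida 7.82 and 7.29 (-0.53, SE 0.45). These were picked from the strongest members. Others had larger p-values before PPx in the authors' deposited table, with 0.628 at Cdk8, 0.71 at Lars2, 0.874 at Gm10801 and 0.941 at Filip1l. In the chromosome 5 stretch the matches had either sign, from -0.35 near Gm17019 to 0.77 near Gm21847.

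The PPx comparisons share the libraries taken after PPx with the rule, so their values are set side by side and not tested. The rule favours a high control mean and a low KO-labelled mean after PPx. It therefore enlarges the members' rise in controls and shrinks it in KO-labelled islets, in medians, counts and single peaks alike. Nothing is read from the gaps between members and the whole table. The tables were also normalised separately, so levels are compared only within a table. In controls, 780 members (64.6%) overlapped a listed peak, and their median concentration went from 3.40 before to 3.79 after PPx, a difference of 0.38 beside 0.16 for the table. None of the 780 reached an FDR of 0.05 in the authors' deposited table, in which no peak of 8070 did (0%), and 66 were higher at an unadjusted p under 0.05 (8.46%, beside 2.43% of the table) with 0 lower. In KO-labelled islets 786 members (65.1%) matched, with medians of 2.96 before and 3.42 after, a difference of 0.49 beside 0.83 for the table. Of these, 4 were higher after PPx at FDR 0.05, while 951 of all 12767 peaks (7.45%) were, by the authors' deposited table. They were intron 2 of Rasgrf2, a Ras guanine nucleotide exchange factor (1.73, FDR of 0.0230), Slc30a8 intron 2 (1.55, FDR of 0.0484) and distal peaks of Gm23848 (1.60, FDR of 0.0484) and Gm9081 (1.53, FDR of 0.0468), all in the authors' deposited table.

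Members differed in which group mean moved with PPx, and these values were not tested against each other. The median autosomal peak rose by 0.83 in KO-labelled islets and by 0.16 in controls, in comparisons normalised separately. A larger rise in KO-labelled islets therefore does not by itself set a member apart. Slc30a8 intron 2 went from 2.88 to 4.43 in KO-labelled islets and from 4.33 to 4.62 in controls. Erbb4 intron 1 went from 3.20 to 4.19 in KO-labelled islets and from 4.12 to 4.43 in controls. At 2 other members the control mean changed more than the KO-labelled mean: Pkhd1 exon 61 went from 4.15 to 4.84 in controls and from 3.92 to 3.66 in KO-labelled islets, and the stronger distal peak of Myc from 3.19 to 4.04 and from 3.19 to 3.42. The means of Ndufb3 went in opposite directions, from 3.52 to 4.04 in controls and from 3.46 to 2.80 in KO-labelled islets. Within the genotype tables, Ankle1 had a difference of -1.30 (SE 0.77) before PPx and -1.45 (SE 0.69) after it. A listed match in all 3 other tables was found for 414 members (34.3%), in at least 1 for 1026 (85.0%) and in none for 181 (15.0%).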

How the data were processed

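ATAC-seq of 15 islet libraries from male mice was analysed from 4 tables that the authors deposited, 1 per comparison. Per the submitters' processing notes, the tools were BWA, cutadapt, ChIPseeker, DiffBind and MACS, with the mm10 build and without versions or roles. The authors deposited log2 concentrations of normalised reads as group means, a log2 fold, and a p-value and FDR whose test is not named in the file headers. How libraries were scaled to each other is not stated by the labels or headers. The sample titles do not say whether a library holds islets of 1 mouse. Each library was taken as 1 mouse, and the p-value was read as measuring spread between mice. The deposited counts per group give the libraries in which a peak was called. No column of an unused sample was found (0).

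Repeated rows were dropped, which left 13111, 7826, 8070 and 12767 peaks (genotype after and before PPx, PPx in controls and in KO-labelled islets). A member was matched to a peak of another table if they shared 1 bp or more, and annotation was taken as deposited. The implied SE is the size of a difference over the two-sided normal quantile of its p, left out for differences under 0.1 or p of 0.95 and above. Promoter sequences came from RefSeq GRCm38.p6, whose table held 18 autosomes. Python 3.11.15, pandas 2.3.3, numpy 2.4.6 and scipy 1.17.1 were used, and the steps were tested on simulated data. Members, the 14 gene lists and the named peaks were chosen with earlier results of these data known. Named were members with an FDR of 0.05 or below, the 10 lowest with established gene names, the 10 strongest, the 6 strongest promoters, up to 3 per gene list, the 8 lowest matched in all tables and the 3 peaks on each side of 0. Alternatives changed the cutoff, chromosomes, minimum concentration, overlap, promoter width, FDR, peaks per gene and the calls required. A peak that the rule names is not reported here.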

Additional observations from a re-analysis of the deposited data

How the results depend on the processing

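Of 23 alternatives, 16 left the result within its limits. The number of members was 582 at a difference of -0.25 or lower, 279 at -0.5 or lower and 6201 below the autosomal median, because each moves the line that defines them. At the authors' FDR of 0.1, 29 members were called in place of 8. With promoters limited to 1 kb the promoter share was 14.6%. Chosen after seeing the data, a call in both groups before PPx gave a median difference of -0.33 for the matched members and a call in at least 2 KO-labelled libraries -0.27, in place of -0.40. Including chromosomes X and Y gave 1239 members, a minimum concentration of 3 gave 958, and leaving out the 1 Mb windows with 5 or more members gave 1178. No paired analysis was possible because the tables hold group means and the labels share no number between groups. Leaving out each mouse was not run for the same reason. Weak peaks limit the values: the median member had 10.6 reads, and 15 stood at the lowest KO-labelled concentration.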
